A study of Rattus norvegicus with 30 samples.

Results

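Long noncoding RNAs (lncRNAs) are transcripts that resemble mRNAs in being capped, spliced and often polyadenylated but carry no long conserved reading frame. The genes described here were the lncRNAs of rat lung that the annotation types as lincRNA (lying between protein-coding genes), antisense or sense_intronic and that reached a mean of at least 1 FPKM, fragments counted relative to transcript length and library size. They were selected on that measured mean over all 30 libraries, and 137 of the 1706 lncRNA genes in the table, which lists 22907 genes of all types, passed. Of the 137, 135 were lincRNAs, 2 were antisense genes and 0 were sense_intronic. The mean level itself is therefore a description and was not tested.

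The libraries came from lung tissue of male Sprague Dawley rats aged 8 weeks, 3 rats in each of 10 groups, and were collected 6 h or 24 h after surgery. In the Sham groups (Sham-6h and Sham-24h) the pancreas was slightly turned at surgery, and in the Con groups the biliopancreatic duct was infused with sterile saline. For SAP, DEX and Emo rats the duct instead received 5.0% sodium taurocholate at 0.1 mL per 100 g, which induces severe acute pancreatitis (SAP) with acute lung injury. DEX rats were also injected intravenously with dexamethasone, a synthetic glucocorticoid, at 10 mg/kg, and Emo rats were given emodin, an anthraquinone of rhubarb, by gavage. The emodin dose is 40 mg/kg in the treatment protocol and 10 mg/kg in the sample descriptions. Both drugs were given at 2 h and 12 h, so the 6 h animals had received only the first dose, and all rats without a drug received its vehicle. Every group fasted and was anaesthetised with pentobarbital sodium before surgery. Each library is taken as a separate rat, since the labels and methods name no pooling.

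The lung expresses lncRNAs in most of its cell types. Fendrr, the best known of the genes here, is transcribed from the strand opposite to its neighbour Foxf1, which encodes a forkhead factor of lung mesenchyme and endothelium. It is needed in the mouse embryo for the heart, body wall and lung, and its RNA can bind a Polycomb repressive complex. Most other rat lncRNAs have no assigned function and carry the name of the genome contig on which they were annotated. In bulk tissue such as this, fewer cells of a type and less RNA per cell cannot be told apart.

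Of the 137 genes, 3 could be matched to RefSeq. Fendrr and LOC102549726 are lncRNAs there as well, while LOC300024 carries the gene number of Ly6al1, a protein-coding gene, and may be no lncRNA. In the RefSeq table of the assembly GRCr8, 0 genes lie between Fendrr and Foxf1. The Fendrr promoter is shown because Fendrr was the named lncRNA that separated the dexamethasone libraries at 24 h (below). RefSeq places this window, 250 bases before to 50 bases after the start, on the minus strand at chr19:66061417-66061716 of GRCr8, and the sequence runs 5′ to 3′:
Fendrr promoter: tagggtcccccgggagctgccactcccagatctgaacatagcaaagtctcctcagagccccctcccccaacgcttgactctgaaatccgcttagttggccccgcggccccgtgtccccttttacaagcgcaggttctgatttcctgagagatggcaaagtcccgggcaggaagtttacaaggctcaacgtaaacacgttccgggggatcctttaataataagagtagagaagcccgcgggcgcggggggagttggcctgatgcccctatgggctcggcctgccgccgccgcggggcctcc
The window is 61.0% G and C and holds 20 CG dinucleotides, against medians of 51.7% and 7 over 33469 RefSeq promoters of the same length. It was searched on both strands for AGAACA, the half-site letters of a glucocorticoid receptor element, and for CACGTG, an E-box. Neither was found in this window, so no base is capitalised. AGAACA occurs in 20.7% and CACGTG in 6.42% of the promoters.

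Primer pairs for RT-qPCR exist for 5 of the genes and are shown because they define which stretch of these otherwise unnamed transcripts can be assayed. All primers are written 5′ to 3′, with no base capitalised.
Rn60_7_1164.1 forward primer: tgcttccagtgcttcaagg
Rn60_7_1164.1 reverse primer: gtgtaaagaagaacctcattgc
AABR07051642.1 forward primer: tccagatgacacagtctccag
AABR07051642.1 reverse primer: cttctgctgataccacgctaa
Rn60_20_0066.11 forward primer: gcaggttcagaggtgtagca
Rn60_20_0066.11 reverse primer: ggagcagcgcagaagagaa
AABR07062477.2 forward primer: tggtgtccgacatctgttgg
AABR07062477.2 reverse primer: gcggcagaaccttgagcat
AABR07051639.1 forward primer: cgaatgtctagcaagtgagga
AABR07051639.1 reverse primer: aataagtcgcagcatcttcaga

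**Figure D1:**
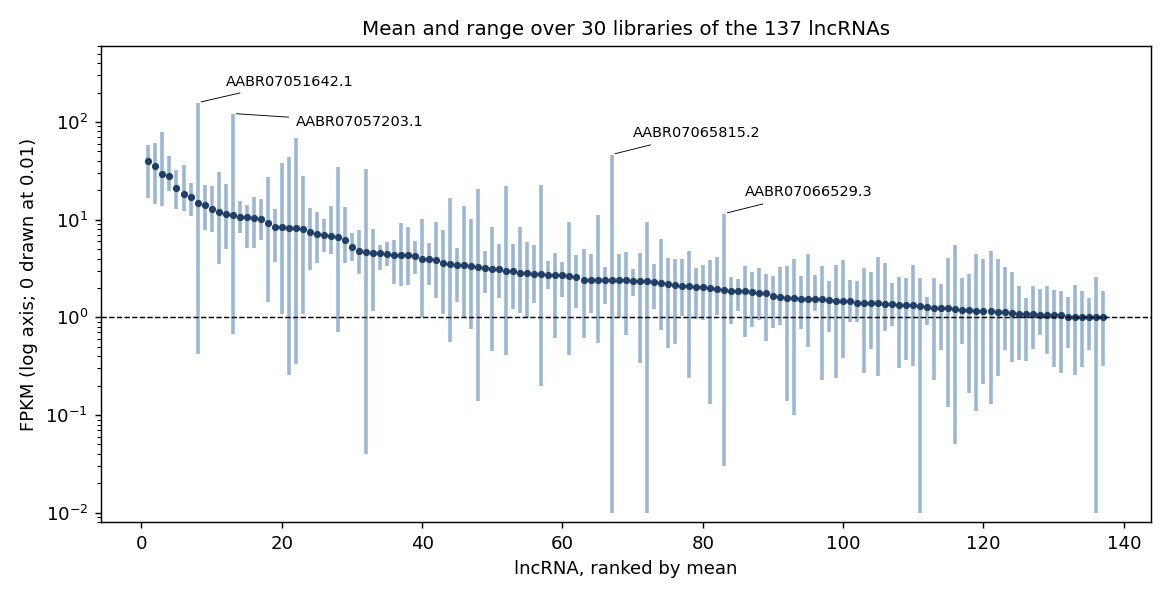
Mean FPKM (points, log axis) and lowest to highest FPKM over the 30 libraries (bars) of the 137 lncRNAs, ranked by mean; the dashed line is the limit of 1 FPKM and a value of 0 is drawn at 0.01. AABR07051642.1, AABR07057203.1, AABR07065815.2 and AABR07066529.3 are labelled as genes whose highest library lay far above their mean.

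The 137 lncRNAs together took between 0.0673% and 0.115% of the counted reads of a library, in libraries of 16813949 to 34692306 reads. By the study's mapping summary, a smaller part of the reads mapped uniquely in every SAP, DEX and Emo library than in every Sham and Con library, which cannot be told apart from taurocholate in the comparisons of SAP with Sham. The share taken by the 137 was lowest in Emo-6h, at 0.0673% to 0.0741%, and highest in Sham-24h and Emo-24h, at 0.107% to 0.114% and 0.0999% to 0.115%. The median of the 137 means was 2.39 FPKM. Only 17 genes reached 10 FPKM, 56 lay between 1 and 2 FPKM, and the 10 highest held 36.4% of the summed FPKM. All 137 passed the filter on low counts and were tested, 133 were above 0 in all 30 libraries and 100 had at least 10 reads in each of them. As for the threshold, AC126572.4 (1.001 FPKM), AABR07013123.1 (1.0027 FPKM) and AABR07044562.1 (1.0097 FPKM) lay just inside, and AABR07032590.1 (0.978 FPKM), AABR07069473.1 (0.961 FPKM) and AABR07002882.1 (0.957 FPKM) just outside. Of the 137, 13 passed only through their highest group, since their mean over the other 9 groups was below 1 FPKM. AABR07052504.1 (highest in SAP-6h) and AABR07013123.1 (highest in Sham-24h) are among these 13.

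The highest lncRNA, AABR07064373.1 on chromosome 6, had a mean of 40.03 FPKM and ranged from 16.77 to 57.49 FPKM. Fendrr on chromosome 19 followed with a mean of 35.72 FPKM (14.54 to 60.25 FPKM). Next in order came AABR07019088.1 (29.07 FPKM), AABR07053749.1 (28.16 FPKM), Rn60_X_0746.3 (21.27 FPKM), LOC102549726 (18.42 FPKM) and Rn60_13_0828.1 (16.87 FPKM). AABR07051642.1 (14.92 FPKM), AABR07002969.1 (14.14 FPKM) and AABR07030598.1 (12.97 FPKM) completed the 10 highest. The ranges of neighbours in this order overlap, so the order is that of the means only. The 137 genes lay on 21 chromosomes, with 17 on chromosome 3, 16 on chromosome 1 and 9 on chromosome X.

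The lncRNAs varied more between libraries than coding genes did. Their median coefficient of variation of FPKM was 0.379, against 0.215 over the 12004 protein-coding genes with a mean of at least 1 FPKM, a difference that was not tested because lncRNAs have fewer reads. The steadiest were AABR07014855.1 (coefficient of variation 0.122, 3.08 to 5.51 FPKM), LOC100911851 (0.150), AABR07068341.1 (0.166), AC141521.2 (0.166) and AABR07034669.1 (0.166). At the other end, 15 genes had a coefficient above 1, and in 10 the highest library was over 10 times the median library. AABR07065815.2 had the highest coefficient, 3.54, with 46.33 FPKM in Con-6h replicate 2 and 0 FPKM in its lowest library. AABR07057203.1 (1.96) reached 122.01 FPKM in Sham-24h replicate 1, and AABR07051642.1 (1.86) reached 157.39 FPKM in Con-6h replicate 2. AABR07065772.3 (1.60) peaked in the same library at 22.61 FPKM, and AABR07051555.1 (1.58) at 68.83 FPKM in SAP-6h replicate 3. Each of these peaks is the value of 1 library.

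To place the lncRNAs among the cell types and pathways of the lung, the log2(FPKM + 1) of each was correlated over the 30 libraries with the mean of 16 lists of marker genes. The libraries share tissue, groups and depth, and these correlations are given as a description without a test. For 49 of the 137 the highest r was at least 0.5, and for 10 it was at least 0.7. By number, alveolar type 1 cell genes were the best list of most lncRNAs, 21, followed by neutrophil genes with 20, but no r with these lists exceeded 0.644 and 0.571. Glucocorticoid targets were the best list of 14 lncRNAs, led by AABR07004868.2 (r = 0.88), AABR07066529.3 (r = 0.85), AABR07058656.1 (r = 0.778) and AABR07047256.1 (r = 0.735). Ciliated cell genes were the best list of 13, led by AABR07071198.1 (r = 0.848), AABR07005593.1 (r = 0.832) and AABR07024641.1 (r = 0.802). LOC300024 went with proliferation genes (r = 0.719), AABR07061382.2 with endothelial genes (r = 0.715), and AABR07002969.1 with genes of fibroblasts and lung mesenchyme (r = 0.71). Fendrr was also nearest to the mesenchymal list (r = 0.614).

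B cell and plasma cell genes were the best list of 12 lncRNAs, of which 6 were on chromosome 3, 4 on chromosome 6 and 2 on chromosome 19. In the same annotation, chromosome 3 carries immunoglobulin kappa variable genes such as Igkv5-48 and Igkv4-91, and chromosome 6 the heavy chain constant gene Ighm. AABR07051639.1 (r = 0.681) and AABR07051642.1 (r = 0.674), both on chromosome 3, were nearest to this list. Over the protein-coding genes of at least 1 FPKM, AABR07051642.1 was most like Mzb1 (r = 0.814), a chaperone of antibody-secreting cells, AABR07061134.1 (r = 0.799) and Tnfrsf17 (r = 0.786), the plasma cell receptor BCMA. AABR07051639.1 was most like AABR07060963.2 (r = 0.79), Igj (r = 0.76), the immunoglobulin joining chain, and Slamf6 (r = 0.759). The summed FPKM of the 7 B cell and plasma cell markers reached 268 in Con-6h, where other groups ended at 97 or below. AABR07051642.1 and AABR07051639.1 both peaked in Con-6h replicate 2, at 157.39 and 21.88 FPKM. Cd79b, one of these markers, also peaked in that library, at 59.52 FPKM beside 11.11 and 14.05 FPKM in Con-6h replicates 1 and 3. Variable segments resemble each other and reads mapped to several places were discarded by the authors. The levels of these lncRNAs may therefore be incomplete, which was not tested. The annotation types them as lncRNAs. Whether AABR07051642.1, AABR07051639.1 or others of the 12 are instead immunoglobulin segments was likewise not tested.

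Fendrr was most like Amigo2 (r = 0.901), Wfdc1 (r = 0.891) and Sh3bgrl3 (r = 0.865) among coding genes. Rn60_7_1164.1 was most like Mrpl14 (r = 0.928), a mitochondrial ribosomal protein, Eva1b (r = 0.9) and Sstr4 (r = 0.881), a somatostatin receptor. Rn60_20_0066.11 was most like Cass4 (r = 0.863), Rasl12 (r = 0.862) and Vipr2 (r = 0.86), a receptor for vasoactive intestinal peptide. AABR07062477.2 was most like Kcne2 (r = 0.791), Pik3c2b (r = 0.757) and Nceh1 (r = 0.754).

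The comparisons of groups used edgeR's quasi-likelihood test on the counts of all 15934 genes that passed the filter, and a lncRNA is said to have risen or fallen when its Benjamini-Hochberg adjusted p over all of them was below 0.05 and its change at least 2-fold. At least 1 call was made for 48 of the 137 (35%), against 21.9% of all genes tested and 17.6% of protein-coding genes of at least 1 FPKM, and 89 were called in none of the 18 comparisons. The rule used the mean of the same libraries, so a gene could pass through a group where it was high, and all counts of the 137 are given as a description. Fold changes are log2 of the fitted counts. The standard error (SE) beside them was derived from the test, as the size of the log2 change divided by the square root of its F statistic. Comparisons at a time point share the SAP libraries, so a gene that rose in SAP and fell with a drug rests in both on the same 3 libraries.

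**Figure D2:**
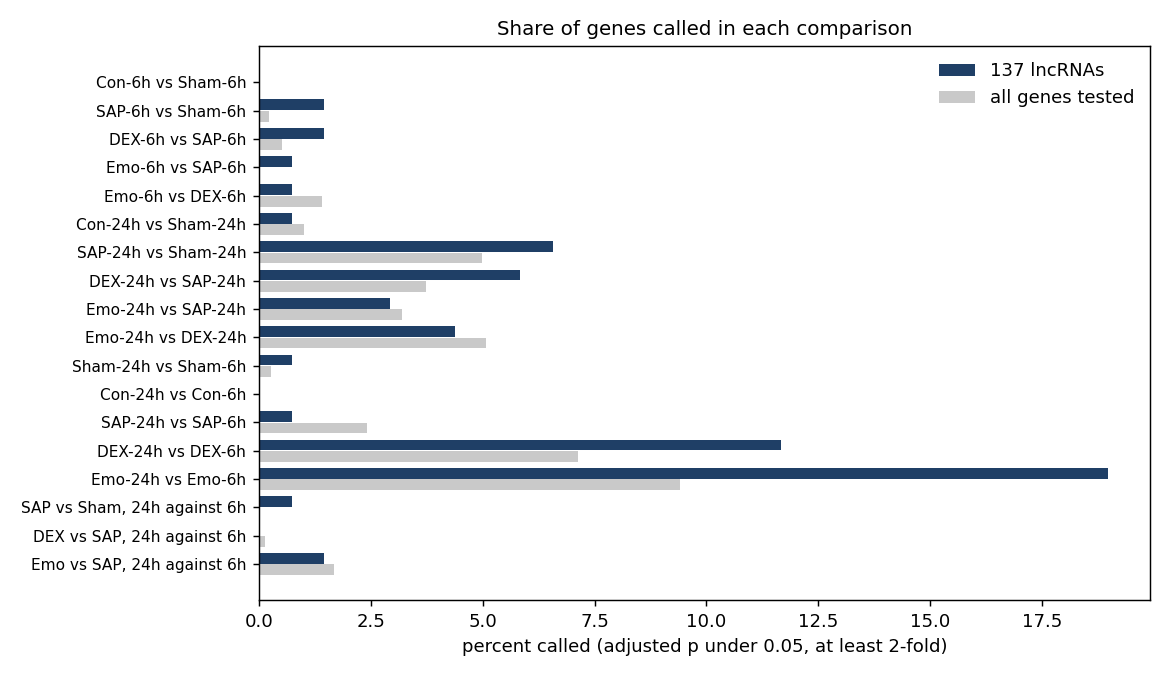
Percent called (adjusted p below 0.05 and at least 2-fold, edgeR) among the 137 lncRNAs (dark bars) and all 15934 genes tested (grey bars) in each of the 18 comparisons. The longest bar of the lncRNAs is Emo-24h against Emo-6h, and the bars are at or near 0 for Con against Sham.

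Con and Sham rats were compared to show what saline infusion of the duct changed. In Con-6h against Sham-6h edgeR called 0 lncRNAs and 0% of all genes, with 7 lncRNAs higher and 0 lower by 2-fold at an unadjusted p below 0.05 (against 1.47% and 0.32% of all genes), and DESeq2 called 2 (against 0.0311%). In Con-24h against Sham-24h 1 lncRNA was called, against 1% of all genes tested, while 8 were lower and 0 higher at an adjusted p below 0.05 whatever the fold (against 5.64% and 4.21% of all genes). Of the 137, 88 had a log2 change below 0 (median -0.14, and -0.02 over all genes). The share of reads on the 137 did not overlap, at 0.0794% to 0.0874% in Con-24h and 0.107% to 0.114% in Sham-24h. The lncRNA called was Rn60_X_0663.2, which measured 1.44, 2.36 and 4.34 FPKM in Con-24h and 8.74, 12.42 and 27.09 FPKM in Sham-24h. It was lower in Con-24h by a log2 change of -2.58 (SE 0.679, adjusted p = 0.0214), and the groups did not overlap. The call was lost when Con-24h replicate 1 or 2 or Sham-24h replicate 3 was left out, with an adjusted p of up to 0.116. Beside it, 3 of 8 neutrophil markers were also lower in Con-24h, where their summed FPKM was 236 to 1260 against 423 to 9530 in Sham-24h. The part of neutrophils in the difference was not tested.

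At 6 h after taurocholate 2 lncRNAs rose in SAP-6h against Sham-6h, against 0.22% of all genes called. Both, AABR07051555.1 and AABR07051716.2, lie on chromosome 3. AABR07051555.1 measured 0.33, 1.11 and 1.53 FPKM in Sham-6h and 11.38, 27.32 and 68.83 FPKM in SAP-6h, a log2 change of 5.23 (SE 0.822, adjusted p = 0.00661). Without SAP-6h replicate 3 the change was 4.34 (adjusted p = 0.0328). The 3 Sham-6h libraries were its lowest at 6 h, and Con-6h measured 13.72, 13.2 and 7.77 FPKM. AABR07051716.2 measured 0.19, 0.27 and 0.35 FPKM in Sham-6h and 20.62, 1.92 and 8.15 FPKM in SAP-6h, a log2 change of 5.30 (SE 1.09, adjusted p = 0.038). Its call was lost without SAP-6h replicate 1 or 3 or any 1 Sham-6h library (adjusted p up to 0.172). Of the marker lists, AABR07051555.1 was nearest to the B cell list (r = 0.378, and 0.37 with red blood cells). AABR07051716.2 was nearest to glucocorticoid targets (r = 0.414, and 0.281 with B cells). Among coding genes AABR07051555.1 was much closer to AABR07065774.1 (r = 0.924), AABR07060979.1 (r = 0.781) and AABR07051726.1 (r = 0.672), which carry contig names only. Of the 7 B cell and plasma cell, 4 red blood cell and 12 glucocorticoid target genes 0 were called here. The summed FPKM of the B cell list was 48.3 to 68.8 in Sham-6h and 59.2 to 90.9 in SAP-6h, ranges that overlapped. Those of the other two did not, at 195 to 924 and 1850 to 2390 for red blood cells and 890 to 1520 and 2160 to 2990 for glucocorticoid targets, and their part in the result was not tested. A fit of the 6 compared libraries alone called 0 lncRNAs and 0% of all genes.

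By 24 h the taurocholate rats differed from Sham in more lncRNAs. In SAP-24h against Sham-24h 6 rose (4.38% of the 137, against 1.98% of all genes tested) and 3 fell (2.19%, against 3.01%). Among protein-coding genes of at least 1 FPKM, 2.06% rose and 2.12% fell. The median log2 change was -0.14 over the 137 and -0.03 over all genes. Without SAP-24h replicate 1, 4 rose and 4 fell (2.49% of all genes called). Only 1 fell without SAP-24h replicate 3 or Sham-24h replicate 1 (4.81% and 3.12% of all genes called). DESeq2 called 8 higher and 7 lower (5.07%).

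**Figure D3:**
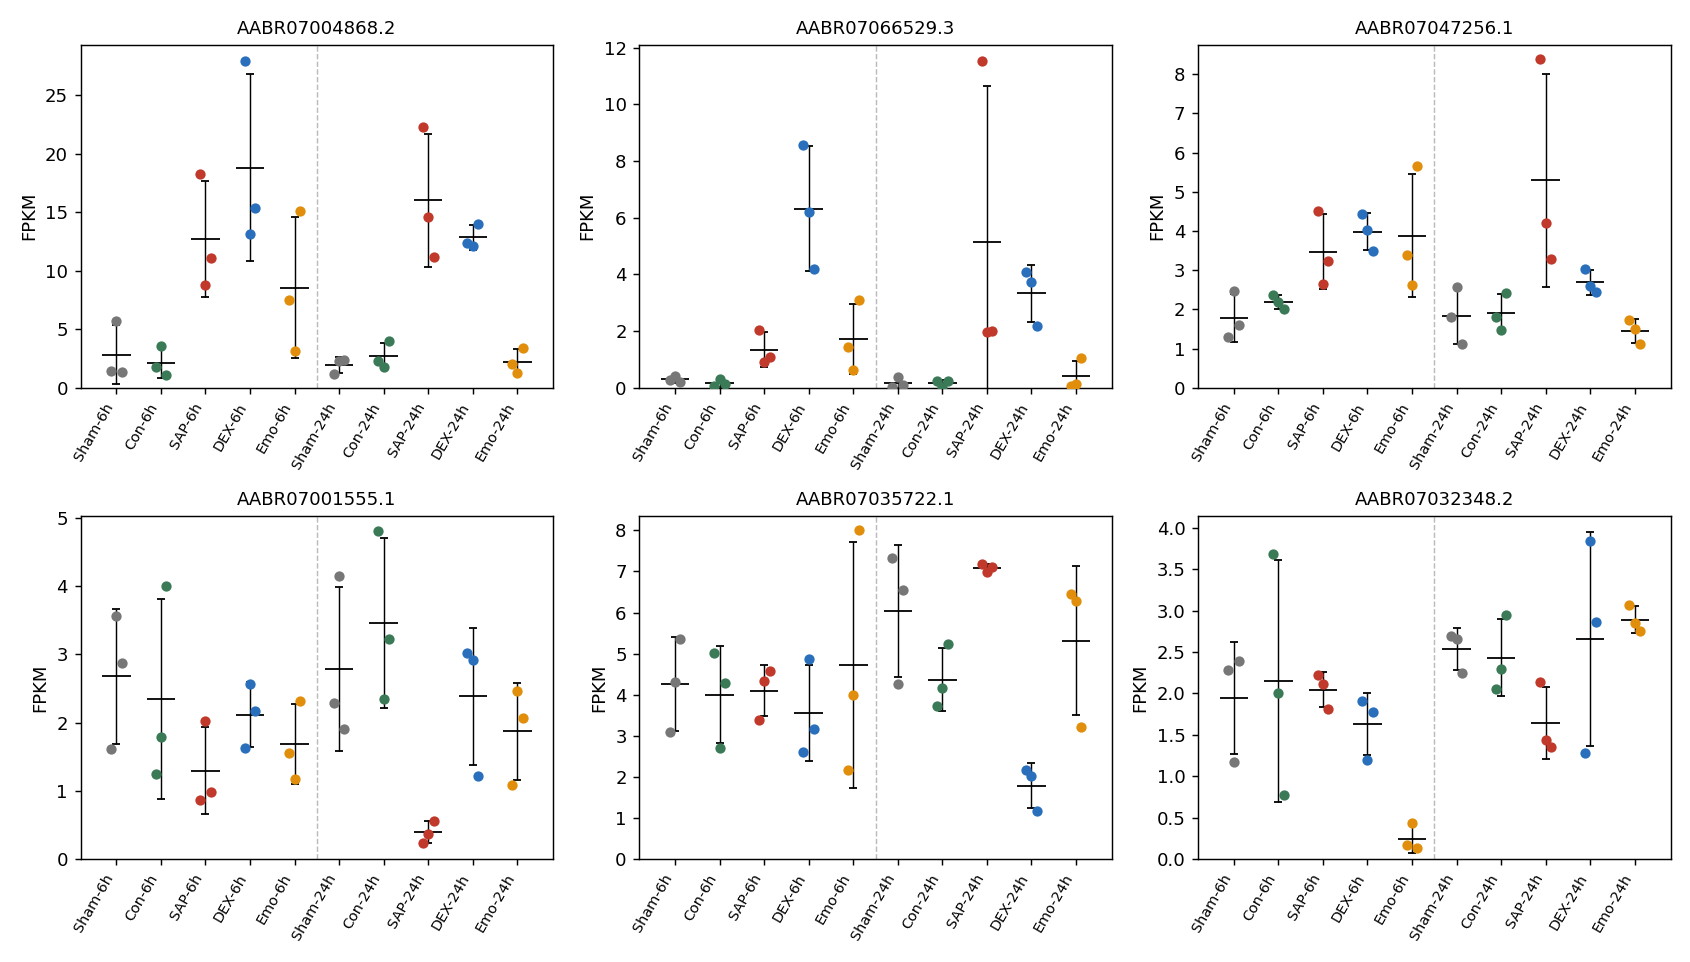
FPKM of 6 lncRNAs in each library (points), with the group mean (horizontal line) and SD (bars, n = 3 per group); libraries of 6 h are left of the dashed line and those of 24 h right of it. AABR07004868.2 and AABR07066529.3 are higher in SAP-24h and DEX-24h than in the Sham and Con groups, AABR07001555.1 is lowest in SAP-24h, AABR07035722.1 has its lowest mean in DEX-24h, and AABR07032348.2 is lowest in Emo-6h.

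AABR07004868.2 on chromosome 1 measured 1.17, 2.3 and 2.36 FPKM in Sham-24h and 22.3, 14.61 and 11.21 FPKM in SAP-24h. The groups did not overlap, and the log2 change was 3.18 (SE 0.606, adjusted p = 0.00263). In Con-24h it measured 2.33, 1.82 and 4.01 FPKM, and at 6 h it measured 1.42, 5.72 and 1.39 FPKM in Sham-6h and 18.26, 8.75 and 11.13 FPKM in SAP-6h, which did not pass the test (log2 change 2.23, SE 0.584, adjusted p = 0.106). Its nearest coding genes were Lrrc32 (r = 0.956), which displays latent TGF-beta, Sema7a (r = 0.951) and the stress factor Maff (r = 0.913).

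AABR07066529.3 on chromosome 9 measured 0.03, 0.39 and 0.1 FPKM in Sham-24h and 11.51, 1.96 and 1.99 FPKM in SAP-24h. Replicate 1 stood far above the other 2 libraries of SAP-24h. In Sham-6h, Con-6h, Sham-24h and Con-24h every library was below 1 FPKM, so the gene passed the limit only through groups given taurocholate. It is one of the 6 counted above, and its values are given as a description with no test.

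AABR07047256.1 measured 1.81, 2.58 and 1.12 FPKM in Sham-24h and 8.39, 4.2 and 3.28 FPKM in SAP-24h, a log2 change of 1.68 (SE 0.381, adjusted p = 0.00755). The call was lost without SAP-24h replicate 1 (log2 change 1.11, adjusted p = 0.0699). Its nearest coding gene was Mt1 (r = 0.895), metallothionein, which glucocorticoids and metals induce.

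AABR07058656.1 and AABR07054490.1 also rose. AABR07058656.1 went from 1.38, 1.37 and 0.98 FPKM to 3.02, 3.45 and 2.24 FPKM (log2 change 1.35, SE 0.274, adjusted p = 0.0036), and AABR07054490.1 from 4.45, 4.55 and 5.72 FPKM to 13.75, 7.86 and 9.96 FPKM (log2 change 1.24, SE 0.192, adjusted p = 0.000938). Neither pair of groups overlapped. AABR07058656.1 kept its call in each fit without 1 library, while AABR07054490.1 came under 2-fold without SAP-24h replicate 1, with an adjusted p of up to 0.00782. AABR07052504.1, one of the 13 genes that passed the limit through their highest group, is counted among the 6 with no test given. Glucocorticoid targets moved beside these genes, with 2 of 12 higher and 0 lower in SAP-24h and a summed FPKM of 1780 to 7740 against 563 to 1300 in Sham-24h. Of the macrophage and monocyte markers 2 of 8 were higher, and of the 13 circadian clock genes 1 was higher and 2 lower. In each of the alveolar type 1 and fibroblast lists 1 gene was lower. Neither group had received dexamethasone, and the part of these lists in the result was not tested.

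Of the 3 lncRNAs that fell, AABR07001555.1 had the largest change. It measured 2.28, 4.15 and 1.91 FPKM in Sham-24h and 0.24, 0.37 and 0.56 FPKM in SAP-24h, a log2 change of -2.69 (SE 0.546, adjusted p = 0.0036). The 3 SAP-24h libraries were its lowest of all 30 libraries. The call stood in each fit that left out 1 library. Over the 30 libraries AABR07001555.1 ran most strongly against the neutrophil list (r = -0.647). The summed FPKM of the 8 neutrophil markers was 4660 to 17800 in SAP-24h, 423 to 9530 in Sham-24h, 4650 to 6890 in Emo-24h and 1620 to 4830 in DEX-24h, and their part in the changes of this gene was not tested.

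**Figure D4:**
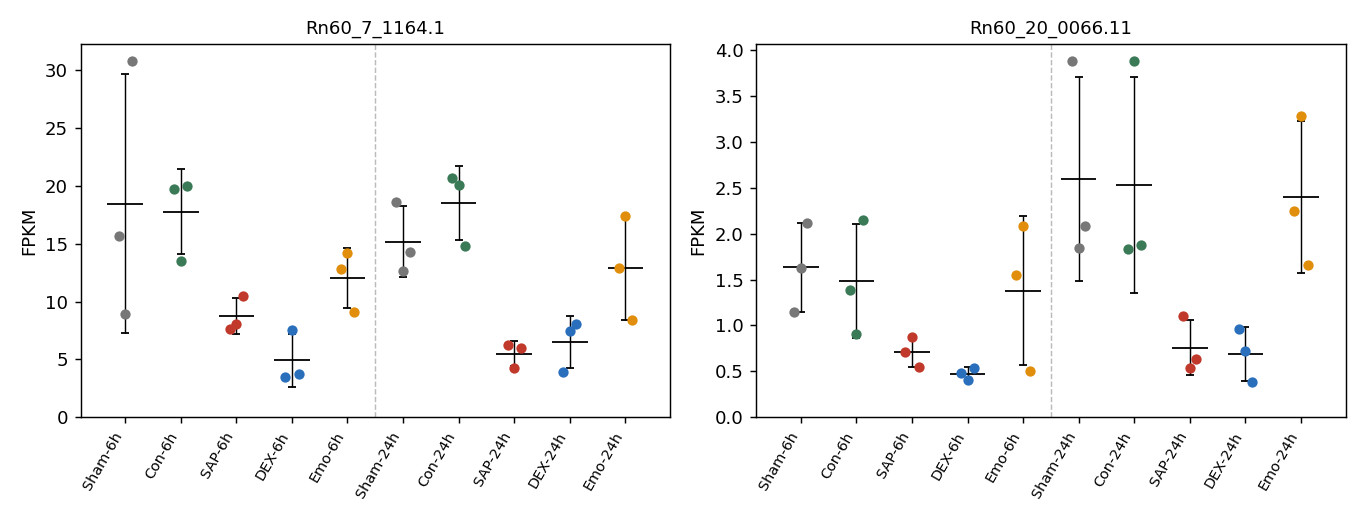
FPKM of Rn60_7_1164.1 and Rn60_20_0066.11 in each library (points), with the group mean (horizontal line) and SD (bars, n = 3 per group); libraries of 6 h are left of the dashed line. Both are lower in SAP-24h than in Sham-24h, and Rn60_20_0066.11 is higher in Emo-24h than in DEX-24h.

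Rn60_7_1164.1, one of the genes with a primer pair, measured 18.63, 12.64 and 14.3 FPKM in Sham-24h and 6.27, 4.27 and 5.96 FPKM in SAP-24h. It fell by 1.33 on the log2 scale (SE 0.379, adjusted p = 0.0255). Without Sham-24h replicate 1 or any 1 SAP-24h library the call was lost (adjusted p up to 0.0897). Rn60_20_0066.11 measured 3.88, 1.84 and 2.08 FPKM in Sham-24h and 1.1, 0.54 and 0.63 FPKM in SAP-24h, a log2 change of -1.63 (SE 0.47, adjusted p = 0.0268). That call was lost without SAP-24h replicate 2 or 3 or Sham-24h replicate 1 (adjusted p up to 0.135). Rn60_7_1164.1 and Rn60_20_0066.11 ran most strongly against the glucocorticoid targets (r = -0.779 and -0.848), of which 2 of 12 rose in SAP-24h. Their part was not tested. The endothelial list had the highest positive r with both (0.652), and 1 of its 7 genes was lower in SAP-24h, with a summed FPKM of 938 to 1010 against 904 to 1170 in Sham-24h. T cell markers fell in 6 of 7 in the same comparison. Fitting the 6 compared libraries alone called 0 of the 137, against 0.02% of all genes. The adjusted p in that fit was 0.0609 for AABR07004868.2 and 0.0778 for AABR07001555.1.

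The change from Sham to SAP differed between 6 h and 24 h for 1 lncRNA, against 0.0314% of all genes. AABR07054490.1 measured 7.56, 8.42 and 6.49 FPKM in Sham-6h and 6.03, 6.09 and 6.25 FPKM in SAP-6h, where SAP did not pass the test (adjusted p = 0.646), while at 24 h it rose. The difference between the time points was 1.48 on the log2 scale (SE 0.27, adjusted p = 0.0471). It did not pass in 8 of the 12 fits that left out 1 library, namely those without SAP-24h replicate 1 or 3, SAP-6h replicate 2 or 3, Sham-24h replicate 1 or 2, or Sham-6h replicate 1 or 2, where the adjusted p reached 0.2.

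Dexamethasone lowered 2 lncRNAs at 6 h, against 0.515% of all genes called in DEX-6h against SAP-6h. AABR07064373.1, the highest of the 137, measured 35.53, 40.75 and 57.49 FPKM in SAP-6h and 16.77, 26.68 and 20 FPKM in DEX-6h. It fell by 1.07 on the log2 scale (SE 0.21, adjusted p = 0.0141), and no library of any other group was as low as the highest of DEX-6h. The call was lost without DEX-6h replicate 1 or 3 or SAP-6h replicate 2 or 3 (adjusted p up to 0.112). Over the 30 libraries the gene ran most strongly against glucocorticoid targets (r = -0.741). Of these 12 genes 1 rose in DEX-6h, and their summed FPKM was 2160 to 2990 in SAP-6h and 2840 to 5400 in DEX-6h, with no test of their part in the result. At 24 h AABR07064373.1 measured 38, 40.45 and 38.98 FPKM in DEX-24h. AABR07051555.1 fell to 6.23, 2 and 3.51 FPKM, a log2 change of -3.18 (SE 0.727, adjusted p = 0.0347), and this call was lost without SAP-6h replicate 2 or 3 or any 1 DEX-6h library (adjusted p up to 0.22). The 4 red blood cell markers had a summed FPKM of 1850 to 2390 in SAP-6h and 138 to 1820 in DEX-6h, with 0 called. Sums of the B cell list overlapped, at 59.2 to 90.9 and 46.8 to 85.4. The part of these lists was not tested. Fitting only the 6 libraries compared called 0 lncRNAs, against 0.646% of all genes.

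In DEX-24h against SAP-24h 2 lncRNAs rose (1.46% of the 137, against 1.18% of all genes) and 6 fell (4.38%, against 2.55%). Among protein-coding genes of at least 1 FPKM, 0.908% rose and 2.62% fell. Fendrr had the smallest adjusted p of the 8.

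**Figure D5:**
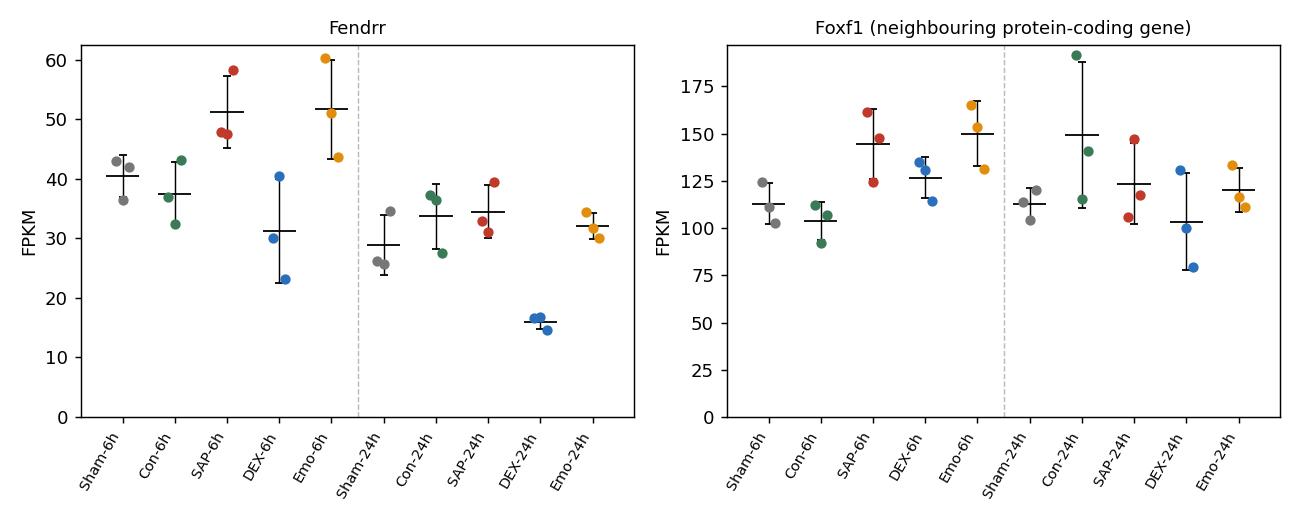
FPKM of Fendrr and of its neighbour Foxf1 in each library (points), with the group mean (horizontal line) and SD (bars, n = 3 per group); libraries of 6 h are left of the dashed line. The 3 DEX-24h libraries of Fendrr, at 14.54 to 16.79 FPKM, lie below all other libraries.

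Fendrr measured 32.86, 31.03 and 39.46 FPKM in SAP-24h (34.45 ± 4.43 FPKM, SD, n = 3) and 16.59, 16.79 and 14.54 FPKM in DEX-24h (15.97 ± 1.25 FPKM, SD, n = 3). It fell by 1.20 on the log2 scale (SE 0.19, adjusted p = 0.000589 in edgeR), and it kept its call in each fit that left out 1 library, with changes of -1.28 to -1.12 and an adjusted p of up to 0.00694, and with the 6 libraries alone (adjusted p = 0.0221). In the other 24 h groups Fendrr measured 26.27, 25.63 and 34.63 FPKM (Sham-24h), 37.24, 36.48 and 27.47 FPKM (Con-24h) and 34.4, 31.79 and 30.06 FPKM (Emo-24h). DEX-24h thus lay below every other library. At 6 h the change with dexamethasone was -0.71 (SE 0.187, adjusted p = 0.0702) and did not pass; Emo-6h exceeded DEX-6h by 0.71 (adjusted p = 0.0384), under 2-fold. Emo-24h exceeded DEX-24h by 0.94 (SE 0.189, adjusted p = 0.00321), also under 2-fold.

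Foxf1 did not pass the test in DEX-24h against SAP-24h, at 104 ± 25.8 and 124 ± 21.2 FPKM (SD, n = 3), with a log2 change of -0.34 (adjusted p = 0.262). Over the 30 libraries Fendrr and Foxf1 had a Pearson r of 0.53 (permutation p = 0.00265, adjusted p = 0.00265 over the 5 pairs of a lncRNA and a mRNA that were computed) and a Spearman rho of 0.482 (permutation p = 0.00769, adjusted p = 0.00961). Without the 2 libraries farthest from the median, both of DEX-24h, r was 0.491. Within groups, after the group means were subtracted, r was 0.362 and did not pass (permutation p = 0.0713, adjusted p = 0.0892). Of the 8 fibroblast and mesenchyme markers 1 was lower in DEX-24h, and their summed FPKM was 369 to 464 against 418 to 498 in SAP-24h. Their part in the fall of Fendrr was not tested.

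AABR07035722.1 measured 7.17, 6.99 and 7.11 FPKM in SAP-24h and 2.17, 2.03 and 1.16 FPKM in DEX-24h, a log2 change of -2.07 (SE 0.381, adjusted p = 0.00206). Its call also stood in every fit that left out 1 library and with the 6 libraries alone (adjusted p = 0.0241). In Emo-24h it measured 6.44, 6.28 and 3.22 FPKM, above DEX-24h by 1.49 (SE 0.376, adjusted p = 0.0148). The difference between the drugs was lost without DEX-24h replicate 3 or Emo-24h replicate 1 or 2 (adjusted p up to 0.0991). In DEX-24h against SAP-24h 1 of 8 neutrophil markers was lower (median log2 change -2.26) and 1 of 6 ciliated cell markers higher. Of the 12 glucocorticoid targets 1 was higher and 1 lower, and 1 of 13 circadian clock genes was lower. The part of these lists was not tested.

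AABR07035796.1, AABR07051555.1 and AABR07025023.1 also fell with dexamethasone, and AABR07052504.1 is the remaining one of the 6, with no test given for the reason above. AABR07035796.1 measured 8.43, 5.14 and 3.98 FPKM in SAP-24h and 2.99, 2.13 and 2.39 FPKM in DEX-24h (log2 change -1.33, SE 0.385, adjusted p = 0.0351), and AABR07025023.1 changed by -1.26 (SE 0.368, adjusted p = 0.0368), with groups that overlapped in FPKM. AABR07051555.1 changed by -2.46 (SE 0.735, adjusted p = 0.0411). The call of AABR07035796.1 was lost without SAP-24h replicate 1 or any 1 DEX-24h library (adjusted p up to 0.201), and that of AABR07051555.1 also without SAP-24h replicate 3 (up to 0.188). AABR07025023.1 was lost without DEX-24h or SAP-24h replicate 2 or 3 (up to 0.158). For AABR07051555.1, B cell and plasma cell markers moved the same way, with 3 of 7 lower and a summed FPKM of 11.7 to 28 in DEX-24h against 28.7 to 51.2 in SAP-24h.

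AABR07001555.1, which fell in SAP-24h, measured 3.02, 2.91 and 1.22 FPKM in DEX-24h and was 2.51 higher on the log2 scale than in SAP-24h (SE 0.546, adjusted p = 0.00667). The groups did not overlap, and the call held in each fit without 1 library. Rn60_1_0435.2 on chromosome 1 rose from 10.18, 6.46 and 10.68 FPKM to 22.37, 23.08 and 12.91 FPKM (log2 change 1.01, SE 0.274, adjusted p = 0.0261), but not without DEX-24h replicate 1 or 2 or SAP-24h replicate 2 (adjusted p up to 0.114). Fitting the 6 compared libraries alone left 2 of the 8 calls, Fendrr and AABR07035722.1, and called 1.49% of all genes. Between 6 h and 24 h the change with dexamethasone differed for 0 lncRNAs in edgeR, against 0.138% of all genes; at an unadjusted p below 0.05, 4 passed 2-fold upwards and 10 downwards (against 2.4% and 2.45%), and DESeq2 called 3 (against 0.885%).

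Emodin lowered 1 lncRNA at 6 h, against 0.0251% of all genes called in Emo-6h against SAP-6h. AABR07032348.2 measured 2.22, 2.11 and 1.81 FPKM in SAP-6h and 0.17, 0.44 and 0.13 FPKM in Emo-6h. The log2 change was -3.06 (SE 0.495, adjusted p = 0.0327), and Emo-6h held the 3 lowest of all 30 libraries. The call was lost without Emo-6h replicate 1 or 3 or SAP-6h replicate 2 (adjusted p up to 0.227), with the 6 libraries alone the adjusted p was 0.348, and DESeq2 gave the gene no adjusted p here. It was likewise the 1 lncRNA called in Emo-6h against DEX-6h, against 1.41% of all genes, with 1.91, 1.2 and 1.78 FPKM in DEX-6h and a log2 change of -2.72 (SE 0.491, adjusted p = 0.00525). That call held in each fit without 1 library (-3.40 without Emo-6h replicate 2), but not with the 6 libraries alone (adjusted p = 0.0524). Of the marker lists, 0 genes were called in Emo-6h against SAP-6h, and against DEX-6h 2 of 12 glucocorticoid targets were lower and 1 of 8 neutrophil markers was higher. The summed FPKM of the 10 interferon response genes was 127, 132 and 4380 in the Emo-6h libraries, in rising order, beside 95.2 to 226 in SAP-6h and 67.2 to 339 in DEX-6h. AABR07032348.2 had r = -0.209 with this list and -0.347 with glucocorticoid targets, and their part was not tested. By 24 h the gene measured 3.07, 2.85 and 2.76 FPKM in Emo-24h, above all 3 Emo-6h libraries.

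In Emo-24h against SAP-24h 1 lncRNA rose (0.73%, against 1.93% of all genes) and 3 fell (2.19%, against 1.26%). The 3 that fell were among those that had risen in SAP-24h. AABR07004868.2 measured 2.01, 1.3 and 3.41 FPKM in Emo-24h, against 22.3, 14.61 and 11.21 FPKM in SAP-24h, and fell by 3.00 on the log2 scale (SE 0.601, adjusted p = 0.0059). AABR07047256.1 measured 1.73, 1.51 and 1.12 FPKM and changed by -2.05 (SE 0.39, adjusted p = 0.00479). Both calls held in each fit without 1 library. AABR07066529.3, the third of them, measured 0.06, 0.13 and 1.04 FPKM, and is again given as a description only. Of the 12 glucocorticoid targets 3 were lower and 0 higher in Emo-24h, with a summed FPKM of 499 to 1130 against 1780 to 7740 in SAP-24h. T cell markers were higher in 2 of 7 (15.3 to 58.4 against 11.8 to 15.9 FPKM summed) and circadian clock genes in 2 of 13, and 1 gene each of the macrophage, alveolar type 2 and fibroblast lists was lower. AABR07004868.2 had r = 0.88 with glucocorticoid targets and -0.503 with T cells over the 30 libraries, and the part of these lists was not tested. AABR07001555.1 rose to 1.09, 2.46 and 2.06 FPKM (log2 change 2.10, SE 0.55, adjusted p = 0.023), a call lost without Emo-24h replicate 2 or 3 or SAP-24h replicate 1 or 2 (adjusted p up to 0.1). The fit of the 6 compared libraries alone called 0 lncRNAs and 0% of all genes, with an adjusted p of 0.102 for AABR07004868.2.

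The change with emodin differed between 6 h and 24 h for 2 lncRNAs, against 1.68% of all genes. For AABR07032348.2 the difference was 3.70 on the log2 scale (SE 0.656, adjusted p = 0.0135), since it was low in Emo-6h and not in Emo-24h. It was lost without Emo-6h replicate 1 or SAP-6h replicate 2 (adjusted p up to 0.0529). For AABR07047256.1 the difference was -2.19 (SE 0.536, adjusted p = 0.0326). At 6 h it measured 3.39, 2.61 and 5.65 FPKM in Emo-6h and 4.52, 2.65 and 3.24 FPKM in SAP-6h, overlapping ranges. Its call was lost without Emo-24h replicate 1 or 2, Emo-6h replicate 1 or 3, SAP-24h replicate 1, or SAP-6h replicate 2 or 3 (adjusted p up to 0.121). With the 12 libraries of these 4 groups alone, neither passed (adjusted p = 0.062 and 0.135).

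The drugs were compared directly in Emo-24h against DEX-24h, where 3 lncRNAs were higher (2.19%, against 3.82% of all genes) and 3 lower (2.19%, against 1.24%). AABR07004868.2 was lower with emodin by a log2 change of -2.57 (SE 0.593, adjusted p = 0.00812), since it measured 12.37, 12.15 and 14.04 FPKM in DEX-24h. The call was lost without Emo-24h replicate 2 (adjusted p = 0.0601). Rn60_X_0711.1 (-1.43, SE 0.343, adjusted p = 0.0108) was also lower. The third was AABR07066529.3, at 4.09, 3.73 and 2.19 FPKM in DEX-24h, for which no test is given. Of the 12 glucocorticoid targets 8 were lower in Emo-24h than in DEX-24h, which had received the glucocorticoid. Rn60_X_0711.1 lost its call without DEX-24h replicate 2 or Emo-24h replicate 1 or 2 (adjusted p up to 0.0801) and with the 6 libraries alone (adjusted p = 0.07).

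Higher with emodin than with dexamethasone were Rn60_20_0066.11, AABR07035722.1 and AABR07035796.1. Rn60_20_0066.11 measured 2.25, 3.29 and 1.66 FPKM in Emo-24h and 0.96, 0.72 and 0.38 FPKM in DEX-24h (log2 change 1.71, SE 0.472, adjusted p = 0.0247). AABR07035796.1 measured 9.46, 5.74 and 6.53 FPKM in Emo-24h, 1.46 above DEX-24h (SE 0.385, adjusted p = 0.0193). Neither pair of groups overlapped. The call of Rn60_20_0066.11 was lost without DEX-24h replicate 2 or 3 or Emo-24h replicate 1 or 2 (adjusted p up to 0.138), and that of AABR07035796.1 without DEX-24h replicate 2 or 3 or Emo-24h replicate 1 (up to 0.101). B cell and T cell markers were higher in Emo-24h as well, in 5 of 7 and 6 of 7. Of the 10 interferon response genes 3 were higher, with a median log2 change of 3.96 and a summed FPKM of 239 to 1280 against 56.2 to 98.4 in DEX-24h. The part of these lists was not tested. AABR07062477.2, another gene with a primer pair, measured 3.78, 3.76 and 3.95 FPKM in Emo-24h and 0.83, 1.54 and 1.8 FPKM in DEX-24h, and did not pass (log2 change 1.40, SE 0.473, adjusted p = 0.0652).

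Within a treatment, more lncRNAs were called with time in the Emo and DEX groups than in Sham, Con or SAP, a difference between treatments that was not tested. In Emo-24h against Emo-6h 21 lncRNAs rose (15.3% of the 137, against 6.33% of all genes and 3.82% of protein-coding genes of at least 1 FPKM) and 5 fell (3.65%, against 3.08% of all genes). The 21 include AABR07041096.1, AABR07069454.1 and AABR07013123.1, which are among the 13 genes that passed the limit only through their highest group, Emo-24h for the first pair. In DEX-24h against DEX-6h 10 rose (7.3%, against 3.23%) and 6 fell (4.38%, against 3.91%). This balance turned without DEX-6h replicate 3, where 6 rose and 8 fell (6.1% of all genes called). It also turned with the 6 libraries alone, where 8 rose and 9 fell (7.03%). Without DEX-6h replicate 1, 8 rose and 3 fell (6.15%). In Sham 1 lncRNA was called with time (against 0.257% of all genes), in SAP 1 (against 2.42%) and in Con 0 (against 0.00628%); in Con, 6 lncRNAs were higher and 8 lower by 2-fold at an unadjusted p below 0.05 in edgeR (against 0.891% and 2.5% of all genes), and DESeq2 also called 0 (against 0.564%). The median change over the 137 was 0.24 in Emo, 0.18 in DEX, 0.26 in Sham, 0.13 in SAP and 0.07 in Con, where over all genes it was 0.03, 0.00, 0.01, 0.02 and -0.01. The clock hour of collection is not given in the labels, so hours after surgery and time of day cannot be told apart.

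AABR07032348.2, which was low in Emo-6h, rose by 3.50 in Emo with time (SE 0.499, adjusted p = 4.39e-05), and by 4.16 without Emo-6h replicate 2. AABR07065531.5 measured 0.75, 0.53 and 0.26 FPKM in Emo-6h and 3.48, 6.94 and 44.02 FPKM in Emo-24h (log2 change 5.14, SE 1.24, adjusted p = 0.00302). In DEX it went from 8.16, 2.23 and 1.34 FPKM to 33.84, 38.55 and 24.64 FPKM (log2 change 3.05, SE 1.05, adjusted p = 0.0355). The call in Emo held without any 1 library, although the change was 3.25 without Emo-24h replicate 3 (adjusted p = 0.0401), while the call in DEX was lost without DEX-24h replicate 1 or 2 or DEX-6h replicate 2 or 3 (adjusted p up to 0.127). AABR07017237.1 rose in Emo by 2.46 (SE 0.655, adjusted p = 0.00609). Its call was lost without Emo-24h replicate 3 (adjusted p = 0.0686), which reached 11.08 FPKM beside 1.84 and 5.24 FPKM. AABR07013123.1, just inside the limit of 1 FPKM, is also counted among the 21, but it measured 1.91, 1.14 and 2.18 FPKM in Emo-24h and reached the limit through groups where it was high, so no test is given.

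Steadier rises were seen in Rn60_14_0846.1, AC108574.2 and Rn60_X_0691.2, each called in both drug groups. Rn60_14_0846.1 measured 3.64, 4.67 and 3.93 FPKM in Emo-6h and 10.76, 11.76 and 8.52 FPKM in Emo-24h, and 5.31, 5.23 and 4.79 FPKM in DEX-6h and 11.84, 9.41 and 9.68 FPKM in DEX-24h. AC108574.2 measured 3.44, 3.06 and 4.23 FPKM in DEX-6h and 10.97, 10 and 11.24 FPKM in DEX-24h, a log2 change of 1.61 (SE 0.187, adjusted p = 1.59e-05). Rn60_X_0691.2 rose by 1.45 in DEX (SE 0.235, adjusted p = 0.000235) and by 1.05 in Emo (SE 0.232, adjusted p = 0.00158), and Rn60_14_0846.1 by 1.03 in DEX (SE 0.158, adjusted p = 0.000151) and 1.30 in Emo (SE 0.16, adjusted p = 1.95e-05). Without DEX-24h replicate 1 or DEX-6h replicate 3 for Rn60_14_0846.1, Emo-24h or Emo-6h replicate 1 for Rn60_X_0691.2, and Emo-24h replicate 2 for AC108574.2 the change came under 2-fold, while the adjusted p stayed at or below 0.0128. The Sham-24h libraries of Rn60_14_0846.1, at 9.67, 10.09 and 11.99 FPKM, also lay above those of Sham-6h, at 6.57, 6.96 and 5.25 FPKM. Those of Con-24h, at 4.88, 5.8 and 7.28 FPKM, overlapped those of Con-6h, at 6.15, 5.59 and 4.5 FPKM. In reads not scaled for depth, AC108574.2 also went from 946, 679 and 458 in Sham-6h to 1251, 1114 and 1136 in Sham-24h. Rn60_X_0691.2 went from 64, 68 and 33 reads to 118, 107 and 82 in the same groups. In SAP the reads of both genes overlapped between 6 h and 24 h, and in Con only those of AC108574.2 did. Neither gene was called with time in Sham, Con or SAP. Of all the variance of log2(FPKM + 1) of Rn60_14_0846.1, 89.0% lay between the 10 groups, beside a median of 51.2% over the 137. Rn60_1_0435.2 rose in DEX by 1.83 (SE 0.281, adjusted p = 0.000149), from 6.67, 4.97 and 4.96 FPKM. AC141334.3 rose in DEX by 2.24 (SE 0.617, adjusted p = 0.0107), lost without DEX-6h replicate 1 (adjusted p = 0.0572), and Rn60_X_0663.2 by 1.79 (SE 0.653, adjusted p = 0.046), lost without DEX-24h replicate 1 or 2 or any 1 DEX-6h library (up to 0.319) and with the 6 libraries alone (adjusted p = 0.0755). In Emo both calls held without any 1 library, at 2.33 for AC141334.3 (SE 0.626, adjusted p = 0.00647) and 2.44 for Rn60_X_0663.2 (SE 0.671, adjusted p = 0.00749). Rn60_X_0663.2 measured 4.11, 3.15 and 1.93 FPKM in Emo-6h and 9.94, 26.2 and 15.3 FPKM in Emo-24h. Beside these rises in Emo, 3 of 4 red blood cell markers fell, from a summed FPKM of 736 to 1470 to one of 83.4 to 441, as did 5 of 7 proliferation markers and 7 of 12 glucocorticoid targets. Over the 30 libraries Rn60_14_0846.1 had r = -0.599 with proliferation, -0.486 with red blood cells and -0.399 with glucocorticoid targets. The same values were -0.539, -0.427 and -0.551 for Rn60_X_0691.2 and -0.445, -0.447 and -0.631 for AC108574.2, and the part of these lists was not tested.

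Of the 3 lncRNAs with an r above 0.8 to the ciliated cell list, AABR07071198.1 and AABR07024641.1 rose in Emo, and AABR07005593.1 was called in no comparison. AABR07005593.1 measured 1.23, 2.94 and 1.18 FPKM in Emo-6h and 3.7, 2.63 and 3.35 FPKM in Emo-24h, ranges that overlapped (log2 change 0.82, SE 0.452, adjusted p = 0.164). AABR07071198.1 measured 1.44, 1.82 and 1 FPKM in Emo-6h and 5.33, 3.51 and 3.69 FPKM in Emo-24h (log2 change 1.51, SE 0.455, adjusted p = 0.0135). Of the 6 ciliated cell markers 1 rose in the same comparison, and their summed FPKM of 381 to 728 and 496 to 613 overlapped. AABR07024641.1 rose in Emo by 1.30 (SE 0.369, adjusted p = 0.00936) and in DEX by 1.14 (SE 0.362, adjusted p = 0.0239). Both Emo calls were lost without Emo-6h replicate 3 (adjusted p up to 0.0639), that of AABR07024641.1 also with the 6 libraries alone (adjusted p = 0.0769), and the DEX call without DEX-24h replicate 3 or DEX-6h replicate 1 or 2 (up to 0.117).

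Among the lncRNAs that fell with time in Emo, LOC300024 went from 5.65, 4.41 and 8.33 FPKM to 1.75, 1.82 and 1.24 FPKM (log2 change -1.99, SE 0.521, adjusted p = 0.00552). Of the 7 proliferation markers, the list it was nearest to, 5 also fell, from a summed FPKM of 27.5 to 47.1 to one of 11.3 to 15.4. AABR07004868.2 (-1.98, SE 0.585, adjusted p = 0.012) and AABR07047256.1 (-1.47, SE 0.389, adjusted p = 0.0059) fell beside 7 of 12 glucocorticoid targets. The Emo-6h and Emo-24h ranges of AABR07004868.2 overlapped. AABR07044635.1 changed by -1.48 (SE 0.562, adjusted p = 0.0449). The call of AABR07004868.2 was lost without Emo-24h replicate 2 or Emo-6h replicate 3 (adjusted p up to 0.109), and that of AABR07044635.1 without any 1 Emo-24h library or Emo-6h replicate 1 or 2 (up to 0.125).

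In DEX with time, AABR07051716.2 (-3.71, SE 0.97, adjusted p = 0.00771), AABR07051592.1 (-3.41, SE 0.986, adjusted p = 0.0143) and AABR07007146.1 (-2.09, SE 0.642, adjusted p = 0.0195) fell. AABR07052504.1 and Rn60_9_0428.1, both among the 13, are counted among the 6 that fell, with no test given. The groups of AABR07051716.2 overlapped in FPKM, and its change ranged from -5.17 without DEX-24h replicate 3 to -2.83 without DEX-6h replicate 3. The call was lost with the 6 libraries alone (adjusted p = 0.0532). AABR07051592.1, of chromosome 3 and nearest to the B cell list, lost its call without DEX-24h replicate 3 or DEX-6h replicate 1 (adjusted p up to 0.146), and AABR07007146.1 without DEX-24h replicate 2 or DEX-6h replicate 1 (up to 0.0776). The B cell and T cell markers fell here in 4 of 7 and 6 of 7. Of the 12 glucocorticoid targets, the list nearest to AABR07051716.2, 2 fell and 1 rose. Their summed FPKM was 2840 to 5400 in DEX-6h and 1670 to 1910 in DEX-24h, and the part of these lists was not tested. Rn60_13_0839.5 was the lncRNA that rose in Sham, from 0.86, 0.99 and 0.7 FPKM to 2.04, 2.17 and 1.9 FPKM (log2 change 1.28, SE 0.261, adjusted p = 0.0305), and AABR07030598.1 the one that rose in SAP, from 12.51, 7.73 and 11.04 FPKM to 17.4, 22.27 and 20.33 FPKM (1.03, SE 0.278, adjusted p = 0.0315). The first was lost without any 1 Sham-24h library or Sham-6h replicate 1 or 3 (adjusted p up to 0.166), and the second without any 1 SAP-24h library or SAP-6h replicate 2 or 3 (up to 0.111). With the 6 compared libraries alone the adjusted p was 0.185 and 0.108, so both calls were lost. Rn60_13_0839.5 was nearest to ciliated cells (r = 0.529), of whose 6 markers 1 rose in Sham, with a summed FPKM of 463 to 604 at 6 h and 580 to 697 at 24 h. AABR07030598.1 was nearest to club cells (r = 0.547). Of the 4 club cell markers 0 were called in SAP with time, but their summed FPKM did not overlap, at 28200 to 29500 in SAP-6h and 37500 to 47300 in SAP-24h. In SAP 3 of 7 T cell and 3 of 4 red blood cell markers fell, and the part of these lists was not tested.

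The pairs with Nrp1 were tested in the same way, but the study picked them from these same libraries, so the tests are not independent evidence. Rn60_7_1164.1 and Nrp1, a co-receptor for semaphorins and VEGF, had r = 0.741 (permutation p = 1e-05, adjusted p = 5e-05; 1e-05 is the smallest that 100000 permutations can give) and rho = 0.785 (adjusted p = 5e-05), and r = 0.662 without DEX-6h replicates 1 and 3. Within groups r was 0.355 (permutation p = 0.0445, adjusted p = 0.0742), which does not pass after adjustment. AABR07062477.2 and Nrp1 had r = 0.641 (permutation p = 8e-05, adjusted p = 0.0002), rho = 0.615 (adjusted p = 0.00122), r = 0.665 without Sham-6h replicate 2 and DEX-6h replicate 1, and r = 0.439 within groups (adjusted permutation p = 0.0331). Nrp1 itself measured 33.7 ± 6.93 FPKM in Sham-24h and 13.9 ± 4.28 FPKM in SAP-24h (SD, n = 3).

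AABR07051642.1 and Cd79b, part of the B cell receptor, had r = 0.558 and rho = 0.446, and r = 0.365 without Con-6h replicate 2 and SAP-24h replicate 2. AABR07051639.1 and Cd79b had r = 0.596 and rho = 0.553, and r = 0.458 without Con-6h replicate 2 and Sham-6h replicate 2. Within groups r was 0.458 and 0.623. Cd79b belongs to the B cell list to which both lncRNAs were nearest, so these values are a description and no test is given. AABR07051642.1 was called in no comparison. It measured 16.2, 12.88 and 19.88 FPKM in Sham-24h and 4.47, 0.42 and 0.52 FPKM in SAP-24h, groups that did not overlap, with a log2 change of -3.00 (SE 1.01, adjusted p = 0.0521).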

How the data were processed

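Lung RNA of 30 libraries was selected with oligo(dT) and made into directional libraries. Transcripts without a poly(A) tail are underrepresented for that reason. According to the labels and the study's methods, the authors mapped trimmed reads to the Ensembl version 6 rat genome with TopHat2 and used edgeR, and bcl2fastq is named in the submitters' processing notes. The deposited table of counts holds whole reads per gene and the deposited table of FPKM values is scaled by the authors for gene length and library total. Reads mapped to several places were discarded by the authors. The study's methods state that antisense reads were left out when lncRNA FPKM was recalculated, but not whether the deposited gene counts were made by strand, so the counts of the 2 antisense lncRNAs may hold reads of their partners. Chromosomes are as the files give them.

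The lncRNAs and the marker lists were chosen with earlier results of these data known. Counts were tested in edgeR 4.0.16 (R 4.3.3): filterByExpr (minimum count 10, minimum total 15), TMM scaling, 1 model of 10 groups with 20 residual degrees of freedom, quasi-likelihood F tests of 18 comparisons, and Benjamini-Hochberg adjustment over 15934 genes. The procedure was tested on simulated data. Alternatives were RLE scaling, DESeq2 1.42.0, no filter, a model of the compared groups alone, the replicate number as a block, and leaving out each library. Correlations used log2(FPKM + 1) with 100000 permutations. An exact permutation test of 3 against 3 libraries cannot go below p = 0.10 and was not used. The lncRNAs named are Fendrr, those with primers, the 10 highest, those with the lowest and highest coefficients of variation (5 each), the 3 on either side of the limit, those matched in RefSeq, the 4 largest calls per direction and comparison, and those called most often. AABR07058656.1, AABR07054490.1, AABR07025023.1, Rn60_14_0846.1, AC108574.2, Rn60_X_0691.2, AABR07071198.1, AABR07024641.1, AABR07005593.1, AABR07041096.1, AABR07069454.1 and Rn60_9_0428.1 were singled out in some comparisons after their values were seen. Markers without a match, among them Jchain, Foxj1, Pecam1 and Hba-a1, were not used here. Promoters are from RefSeq (GRCr8) and primers from the study.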

Additional observations from a re-analysis of the deposited data

Results flagged for a closer look

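In 3 lncRNAs the effect of a treatment differed between 6 h and 24 h by edgeR's test of the difference itself. For AABR07054490.1 the change from Sham to SAP differed by 1.48 on the log2 scale, for AABR07032348.2 the change from SAP to Emo differed by 3.70, and for AABR07047256.1 that change differed by -2.19, each past an adjusted p of 0.05 over 15934 genes. None of the 3 was called in the model of the compared groups alone, where the adjusted p was 0.252, 0.062 and 0.135. The causes were not tested.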

How the results depend on the processing

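The 81 calls kept their direction in all alternatives; the number that stayed called was 78 of the 80 to which DESeq2 gave an adjusted p, 79 with RLE scaling, 73 without the filter, 74 with the replicate block and 39 of 78 in the model of the compared groups alone, where AABR07052504.1 (2 comparisons) and AABR07014885.1 did not pass the filter and gave no value. With 1 library left out, 324 of 504 values stayed called, and 26 of the 81 calls stood in each such fit. For the model of the compared groups alone, the share of all genes called is given in brackets. It called 0 lncRNAs for SAP-6h (0%), Con-24h (0%) and SAP-24h (0.02%) against Sham. The number was likewise 0 for DEX-6h (0.646%), Emo-6h (0%) and Emo-24h (0%) against SAP. It was also 0 for Emo-6h against DEX-6h (0.597%), Sham with time (0%) and the SAP and Emo differences between times (0% and 0.0129%). DEX-24h against SAP-24h gave 2 (1.49%), and Emo-24h against DEX-24h gave 5 (5.4%), 4 higher and 1 lower. DEX with time gave 17 (7.03%), 8 higher and 9 lower. The number was 1 for SAP with time (1.19%), a lncRNA that was lower, while AABR07030598.1 was not called (adjusted p = 0.108). With DESeq2, beside the share of all genes it called, it was 2 for Con-6h (0.0311%), 15 for SAP-24h (5.07%), 0 for Emo-6h against SAP-6h (0.0362%), 5 for Emo-6h against DEX-6h (2.01%), 9 for Emo-24h against SAP-24h (3.63%), 3 for Sham with time (0.922%), 5 for SAP with time (3.08%), and 3, 3 and 7 for the SAP, DEX and Emo differences between times (0.642%, 0.885% and 3.08%). The cause of these differences was not tested. The model of the compared groups alone has fewer residual degrees of freedom, its own estimate of the spread and its own filter. With the replicate block DEX-24h against SAP-24h gave 5 (3.61% of all genes). The deviations from group means of same-numbered libraries had a median correlation of -0.00648 (-0.363 to 0.359). For libraries of different number it was 0.00965 (-0.344 to 0.382). No pairing by number was seen in these medians, which cannot exclude it in some of the groups. Leaving out 1 library gave, with the share of all genes, 1 to 2 (SAP-6h, 0.0248% to 0.371%), 0 to 2 (DEX-6h, 0.0372% to 0.557%), 0 to 1 (Emo-6h against SAP-6h, 0% to 0.0495%), 1 to 3 (Emo-6h against DEX-6h, 0.279% to 1.72%), 0 to 5 (Con-24h, 0.161% to 2.26%), 3 to 7 (DEX-24h, 2.09% to 3.93%), 2 to 7 (Emo-24h against SAP-24h, 0.843% to 3.23%), 1 to 8 (Emo-24h against DEX-24h, 2.39% to 5.52%), 0 to 1 (Sham with time, 0% to 0.155%), 0 to 3 (SAP with time, 1.14% to 2.87%), 0 to 2 (SAP difference, 0% to 0.0989%) and 0 to 9 (Emo difference, 0.0062% to 3.75%). A limit of 0.5 or 2 FPKM would select 203 or 81 lncRNAs. Over all 30 libraries the 3 correlations tested also passed with a pseudocount of 0.1 and with TMM log2 CPM; within groups, Fendrr with Foxf1 and Rn60_7_1164.1 with Nrp1 did not (adjusted p of 0.0892 and 0.0742). The depth of 16813949 to 34692306 reads gave 100 of the 137 lncRNAs at least 10 reads in every library.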
